A study of Phycomyces blakesleeanus with 24 samples.

Results

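The leucine synthesis genes of Phycomyces blakesleeanus are described here in light and in darkness, in mycelium and in sporangiophores, the aerial stalks that carry the spores of this filamentous fungus. They are the 3 genes with the symbols leuA, leuB/leu1 and leuC, identifiers 126083, 121521 and 133959, among 14490 genes listed in at least one of 4 comparisons. They were chosen by symbol from the RefSeq gene table of assembly Phybl2, with the light-dark values of these same comparisons already known. Their folds and the authors' calls are therefore a description, and no test of a difference between comparisons is given for them.

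The study sequenced RNA from ΔL51, called a photoreceptors mutant in the labels, and from a wild type strain, both grown on potato dextrose agar. Each strain was taken as mycelium and as sporangiophores, in light and in darkness, which gave 8 groups of 3 libraries and 24 libraries in all. The authors dropped 4 libraries whose dispersion was greater than that of their replicates, which lowers the spread their test sees, and 20 were left. ΔL51 mycelium then had 3 light and 3 dark libraries and wild type mycelium 3 light and 2 dark, while ΔL51 sporangiophores had 3 light and 2 dark and wild type sporangiophores 2 light and 2 dark. The mutated photoreceptor genes of ΔL51, the background of both strains and the length of the light treatment are not given in the sources used here. For each comparison an authors' deposited table gives every gene's log2 fold change, log2 CPM (its read count scaled to library size and averaged over the libraries of the fit), likelihood ratio and FDR (the p-value adjusted over the table). Values per library and depth were not analysed here, and the error given beside a fold is an approximate standard error computed from the fold and its likelihood ratio. A positive fold stands for more RNA in light, as the table titles put light first. In bulk RNA a lower level per cell and fewer expressing cells cannot be told apart.

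Fungi, plants and bacteria make leucine from the keto acid that also leads to valine. Isopropylmalate synthase joins this keto acid to acetyl-CoA, isopropylmalate isomerase rearranges the product, and isopropylmalate dehydrogenase oxidises and decarboxylates it before an aminotransferase yields leucine. The isomerase belongs to the aconitase family and the dehydrogenase to the isocitrate dehydrogenase family, so the branch resembles the first steps of the tricarboxylic acid cycle, which also start from acetyl-CoA. In yeast the synthase step takes place largely in mitochondria, and fungal leucine auxotrophs are classical genetic markers. The lettering of leu genes differs between organisms (in Escherichia coli leuA is the synthase, leuB the dehydrogenase and leuC a subunit of the isomerase), and the gene table gives no product for the Phycomyces genes. No step is therefore assigned to an individual gene here.

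With each table read by its title, called leucine genes were lower in light in the mutant and higher in light in the wild type. Over the 12 folds of the 3 genes in the 4 comparisons, 4 were called lower, 2 higher and 6 were not called at the authors' FDR under 0.05. The 4 lower calls were all in ΔL51, those of leuB/leu1 in mycelium and of the 3 genes in sporangiophores. The direction of the latter 3 rests on the title of the ΔL51 sporangiophore table, as set out below. The 2 higher calls were both in the wild type, those of leuB/leu1 in mycelium and leuC in sporangiophores. leuB/leu1 was called in 3 comparisons, leuC in 2 and leuA in 1. Over all genes, 0.576% of 14242 were called lower and 0.541% higher in ΔL51 mycelium, and 4.18% of 14410 lower and 9.86% higher in wild type mycelium. For sporangiophores the shares were 12.3% lower and 3.31% higher in ΔL51, and 1.18% lower and 7.23% higher in the wild type. As the genes were chosen with these calls known, the shares are given for scale and nothing is read from them.

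**Figure D1:**
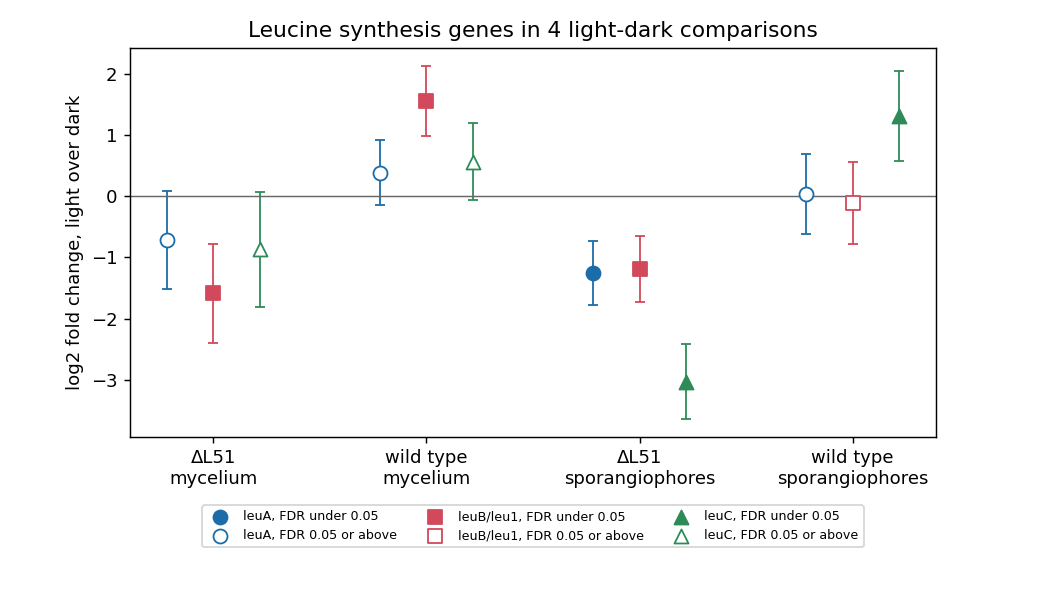
The log2 fold change, light over dark (vertical axis), is plotted for leuA, leuB/leu1 and leuC in the 4 comparisons (horizontal axis), with bars for the approximate 95% interval and filled symbols for an FDR under 0.05. All 6 folds of ΔL51 lie below 0, leuC of ΔL51 sporangiophores is the lowest at -3.03, and leuB/leu1 of wild type mycelium is the highest at 1.56.

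leuB/leu1 was the leucine gene called in the mycelium of both strains, in opposite directions. In ΔL51 mycelium it fell by 1.59 on the log2 scale in the authors' deposited table, 3.01-fold lower in light than in dark (FDR 0.0196). The approximate standard error was 0.41 and the approximate 95% interval ran from -2.40 to -0.78. In wild type mycelium it rose by 1.56 in the authors' deposited table, 2.95-fold higher in light than in dark (FDR 6.5e-06), with an approximate standard error of 0.30 and an interval from 0.98 to 2.14. The folds had opposite signs, also after centring, where they were -1.67 in ΔL51 and 1.17 in the wild type. The mutant fold minus the wild type fold was -3.15 (approximate standard error 0.51). Of the 14162 genes in both tables, 6.75% had a lower difference. The difference was taken between folds that were not centred. The mycelium tables share no log2 CPM, and the median of their folds other than 0 was 0.08 in ΔL51 and 0.39 in the wild type. The call in ΔL51 mycelium ended at an FDR under 0.01. It also ended when an F distribution replaced the chi-square distribution of the authors' test (adjusted p = 0.378). This F distribution allows for an estimated dispersion, with an assumed 12 degrees of freedom in its denominator.

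Sporangiophores gave another picture of leuB/leu1. In ΔL51 sporangiophores it fell by 1.19 in the authors' deposited table (approximate standard error 0.28, FDR 2.1e-04), 2.29-fold lower in light. In wild type sporangiophores its log2 fold change was -0.10 (approximate standard error 0.34, FDR 0.925) in the authors' deposited table, with an interval from -0.78 to 0.57. Among the 4 comparisons it was therefore called higher in one, lower in 2 and not called in one. The lower call in ΔL51 sporangiophores ended when the trend of the folds with expression level was taken out, with a log2 fold change of -0.73 (adjusted p = 0.0536).

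leuC had the furthest fold of the 12 and, with the tables read by their titles, the largest gap between the strains in a structure. In ΔL51 sporangiophores it fell by 3.03 in the authors' deposited table, 8.18-fold lower in light than in dark (approximate standard error 0.31, FDR 1.6e-20), and the interval ran from -3.64 to -2.42. For wild type sporangiophores it rose by 1.32 in the authors' deposited table, 2.49-fold higher in light (approximate standard error 0.38, FDR 0.0091), with an interval from 0.58 to 2.05. The mutant fold minus the wild type fold was -4.35 (approximate standard error 0.49), and 3.30% of 14410 genes had a lower difference. The wild type call ended under the F distribution (adjusted p = 0.0867) and with the trend on expression level taken out, which left a log2 fold change of 0.87 (adjusted p = 0.164). The call in ΔL51 sporangiophores passed under each of the 5 alternatives tried.

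In mycelium leuC had the same signs with smaller folds. Its log2 fold change was -0.87 in ΔL51 mycelium (approximate standard error 0.48, FDR 0.605) in the authors' deposited table. In wild type mycelium it was 0.57 (approximate standard error 0.32, FDR 0.273) in the authors' deposited table. Neither was called, and both intervals included 0, from -1.81 to 0.08 in ΔL51 and from -0.06 to 1.20 in the wild type.

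leuA was called in one comparison. In ΔL51 sporangiophores it fell by 1.25 in the authors' deposited table, 2.38-fold lower in light (approximate standard error 0.27, FDR 4.5e-05), with an interval from -1.77 to -0.73. In wild type sporangiophores its log2 fold change was 0.04 (approximate standard error 0.34, FDR 0.973) in the authors' deposited table, with an interval from -0.62 to 0.70. The mycelium folds were -0.71 in ΔL51 (approximate standard error 0.41, FDR 0.634) and 0.38 in the wild type (approximate standard error 0.27, FDR 0.431) in the authors' deposited tables. Both wild type folds of leuA changed sign with the processing: that of mycelium was -0.0027 once the folds were centred on their median, and that of sporangiophores was -0.41 with the trend on expression level taken out.

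The 3 genes did not move by equal amounts within a comparison. In ΔL51 sporangiophores the log2 fold changes of leuA and leuB/leu1 lay 0.06 apart, while leuC lay 1.78 below leuA and 1.84 below leuB/leu1. In wild type sporangiophores leuA and leuB/leu1 were again close, with leuB/leu1 0.14 below leuA, and leuC stood 1.28 above leuA and 1.42 above leuB/leu1. In mycelium the gene set apart was leuB/leu1. There leuC minus leuA was -0.16 in ΔL51 and 0.18 in the wild type, against a difference of leuB/leu1 minus leuA of -0.88 in ΔL51 and 1.18 in the wild type. These gaps are between genes measured in the same libraries and were not tested.

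The median log2 fold change of the 3 genes was -0.87 in ΔL51 mycelium and 0.57 in wild type mycelium, beside a median over all genes of 0 in each, where many genes have a fold of exactly 0. Over genes with a fold other than 0 the median was 0.08 in ΔL51 mycelium and 0.39 in wild type mycelium, and after centring on it the median of the 3 genes was -0.95 in ΔL51 mycelium and 0.18 in wild type mycelium. The median of the 3 genes was -1.25 in ΔL51 sporangiophores and 0.04 in wild type sporangiophores, beside 0.05 and -0.05 over all genes of the same tables.

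All 3 genes were in the highest quintile of average expression in every table, with log2 CPM between 7.63 and 8.22, and this quintile differed from the rest of the genes. In ΔL51 sporangiophores the median log2 fold change of this quintile was -0.47, and 38.9% of its 2882 genes were called lower. Its median was 0.45 in wild type sporangiophores, where 27.9% were called higher. Within this quintile, leuC of ΔL51 sporangiophores had 10.7% of genes with a lower fold, leuA 28.8% and leuB/leu1 30.2%, so the last pair of genes sat well inside the spread of genes of like expression. leuC of wild type sporangiophores had 76.9% of the quintile with a lower fold, leuA 29.9% and leuB/leu1 21.7%. The part of expression level in the sporangiophore folds of the leucine genes was not tested.

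The median log2 fold change of the highest quintile in mycelium was -0.06 in ΔL51 and 0.14 in the wild type. Of its genes, 1.47% were called lower and 0.597% higher in ΔL51 mycelium, and 12.1% lower and 19.4% higher in wild type mycelium. Over the 5 quintiles the median ran from -0.06 to 0.15 in ΔL51 mycelium and from 0 to 0.45 in wild type mycelium. leuB/leu1 of ΔL51 mycelium had 1.23% of the 2848 genes of the quintile with a lower fold, and leuB/leu1 of wild type mycelium had 92.6% of its 2882 genes with a lower fold. For leuA the shares were 10.2% in ΔL51 mycelium and 61.5% in wild type mycelium, and for leuC 7.06% in ΔL51 mycelium and 69.0% in wild type mycelium. leuB/leu1 was thus the leucine gene nearest the edge of the distribution in the mycelium of both strains.

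**Figure D2:**
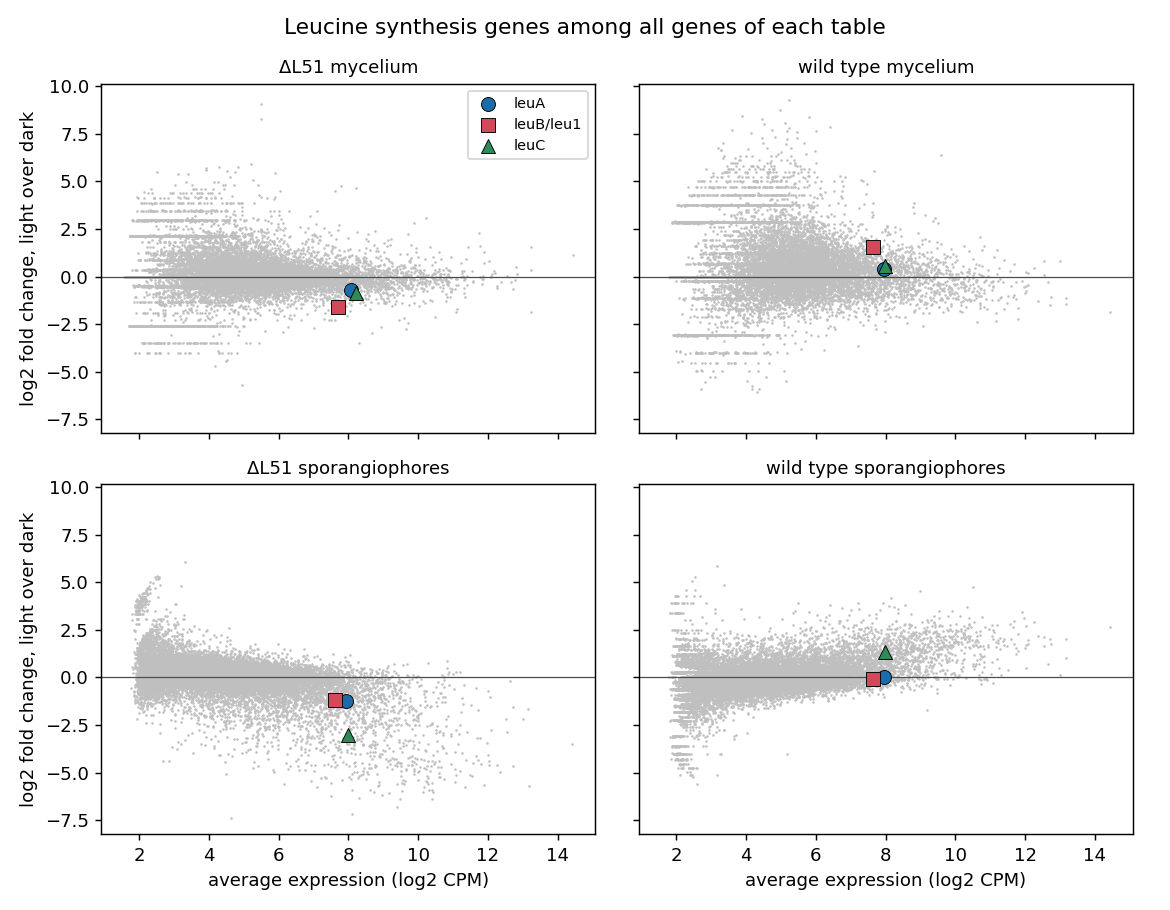
The log2 fold change, light over dark (vertical axis), is plotted against average log2 CPM (horizontal axis) for every gene of each table in grey, with leuA, leuB/leu1 and leuC in colour. The leucine genes sit between 7.63 and 8.22 log2 CPM, where the grey cloud bends down in ΔL51 sporangiophores and up in wild type sporangiophores.

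The pair of calls of leuC in the sporangiophores of the 2 strains was that of many other genes. Of 14410 genes, 810 (5.62%) were called lower in ΔL51 sporangiophores and higher in wild type sporangiophores by the authors' edgeR test, and 32 were called the other way round. At the same FDR 0 genes were called higher in both strains and 0 lower in both. The same pair of calls, lower in ΔL51 and higher in the wild type, was rare in mycelium, where 29 of 14162 genes (0.205%) had it, leuB/leu1 among them. In mycelium 22 genes were called higher in both strains and 7 lower in both. Per the labels the strains share no library. The direction of each table rests on its title, and if the ΔL51 sporangiophore table ran dark over light, the 3 leucine genes would be higher in light there and the 810 genes would be higher in both strains. The gap of leuC between the strains would then be 1.72, smaller in size than that of leuB/leu1 in mycelium.

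**Figure D3:**
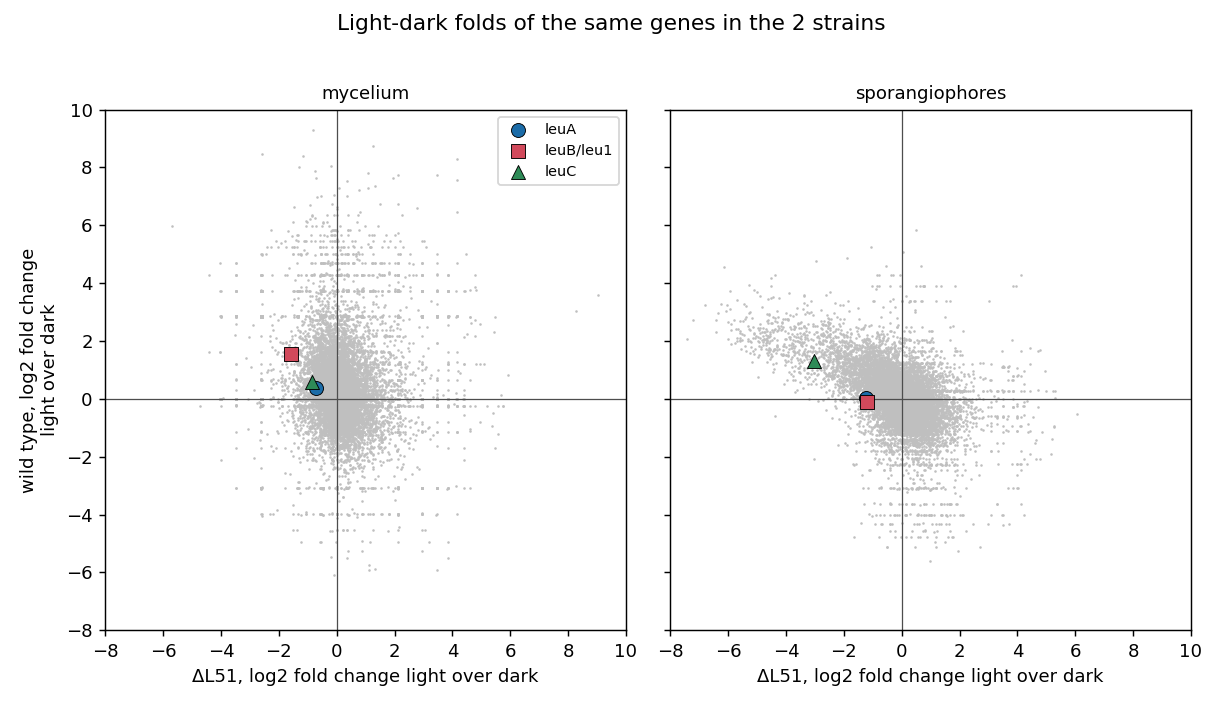
The log2 fold change, light over dark, in ΔL51 (horizontal axis) is plotted against that in the wild type (vertical axis) for all genes in grey, with the leucine genes in colour, for mycelium and for sporangiophores. leuB/leu1 lies at -1.59 and 1.56 in mycelium, and leuC at -3.03 and 1.32 in sporangiophores, on the upper left arm of the grey cloud.

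Of 16850 genes in the gene table, 213 have a symbol. No other symbol among them began with the letters searched for branched-chain or other amino acid synthesis. Genes without a symbol could not be searched in this way. The leucine genes are therefore set beside genes with symbols of the same protein families, and of citrate synthase and pyruvate dehydrogenase. Of 11 aconitase and isocitrate dehydrogenase genes, 3 were called lower and 0 higher in ΔL51 mycelium, with the median of the 11 at -0.46 (log2). By the authors' edgeR test, 5 of the 11 had an unadjusted p under 0.05 in ΔL51 mycelium and 4 in wild type mycelium. The same count was 4 in ΔL51 sporangiophores and 3 in wild type sporangiophores. No share of all genes was taken at that threshold, so nothing is read from these counts. In wild type mycelium 4 were called higher and 0 lower (median 0.56), and after centring 2 were higher and 1 was lower (median 0.17). In ΔL51 sporangiophores 3 were called lower and 0 higher (median -0.49), and in wild type sporangiophores 2 were called higher and 0 lower (median 0.35). With the trend on expression level taken out, the median was -0.03 in ΔL51 sporangiophores and 0.10 in wild type sporangiophores. Under the F distribution 0 of the 11 were called in ΔL51 mycelium. Of the 11 genes, 9 were in the highest expression quintile, whose share of lower calls was 38.9% in ΔL51 sporangiophores and 1.47% in ΔL51 mycelium, and whose share of higher calls was 27.9% in wild type sporangiophores and 19.4% in wild type mycelium. The 3 lower calls of 11 in ΔL51 sporangiophores and the 2 higher calls in wild type sporangiophores do not stand above these shares.

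The copies of these enzymes differed in the structure in which they were called. PbAcoa, an aconitase by its symbol, fell by 2.29 in ΔL51 mycelium (FDR 3.2e-06) and rose by 1.99 in wild type mycelium (FDR 4.9e-07) in the authors' deposited tables. PbAcod, another aconitase, fell by 1.74 in ΔL51 mycelium and rose by 1.97 in wild type mycelium in the authors' deposited tables. PbIdh2c, an isocitrate dehydrogenase by its symbol, fell by 1.98 in ΔL51 mycelium (FDR 7.5e-04), and had a log2 fold change of -0.31 in wild type mycelium (FDR 0.719), in the authors' deposited tables. PbAcob (0.92) and PbIdh1b (1.14) were called higher in wild type mycelium and in no other comparison of the authors' deposited tables. In sporangiophores PbAcoa had log2 fold changes of -0.08 in ΔL51 and 0.35 in the wild type, and PbAcod 0.23 in ΔL51 and 0.15 in the wild type, none of them called in the authors' deposited tables, whereas leuB/leu1 was called lower in ΔL51 sporangiophores. PbAcoc fell by 2.47 in ΔL51 sporangiophores (FDR 1.7e-09) and rose by 2.25 in wild type sporangiophores (FDR 7.0e-06), and was not called in the mycelium of ΔL51 (0.85) or the wild type (0.30), in the authors' deposited tables. PbIdh2a, also an isocitrate dehydrogenase, fell by 3.52 in ΔL51 sporangiophores (FDR 5.7e-31) and rose by 1.14 in wild type sporangiophores (FDR 0.0211) in the authors' deposited tables. PbIdh1a, of the same family, fell by 2.31 in ΔL51 sporangiophores (FDR 2.0e-10) and had a log2 fold change of 0.95 (FDR 0.117) in wild type sporangiophores in the authors' deposited tables. The wild type call of PbIdh2a ended with the trend taken out (adjusted p = 0.279), under the F distribution (adjusted p = 0.120) and at an FDR under 0.01. Under the F distribution the ΔL51 mycelium calls of PbAcoa (adjusted p = 0.0853), PbAcod (adjusted p = 0.143) and PbIdh2c (adjusted p = 0.165) ended, and so did the wild type mycelium call of PbAcob (adjusted p = 0.122). Centring ended the wild type mycelium calls of PbAcob (adjusted p = 0.263) and PbIdh1b (adjusted p = 0.0582), the trend that of PbAcob (adjusted p = 0.0708), and an FDR under 0.01 also that of PbAcob.

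Of 6 genes with citrate synthase or pyruvate dehydrogenase symbols, 3 were called lower and 0 higher in ΔL51 sporangiophores, and the median log2 fold change of the 6 was -1.06. The wild type sporangiophores had 2 called higher and 0 lower (median 0.92), and 0 were called with the trend on expression level taken out or under the F distribution. All 6 were in the highest expression quintile, with the shares of calls given above. The 6 include PbPdhPCa, whose symbol names no E1 or E2 subunit, and whether it uses or makes acetyl-CoA is not known here. Its log2 fold change was -0.23 in ΔL51 sporangiophores and 0.02 in wild type sporangiophores in the authors' deposited tables, neither called. PbPdhE1b, an E1 subunit of pyruvate dehydrogenase by its symbol, fell by 2.56 in ΔL51 sporangiophores (FDR 8.0e-12) and rose by 1.17 in wild type sporangiophores (FDR 0.0398) in the authors' deposited tables. PbCsb, a citrate synthase by its symbol, fell by 1.56 in ΔL51 sporangiophores (FDR 2.2e-06) and rose by 1.28 in wild type sporangiophores (FDR 0.0074) in the authors' deposited tables. PbPdhE1a fell by 1.96 in ΔL51 sporangiophores (FDR 6.7e-07), and in wild type sporangiophores it had a log2 fold change of 0.81 (FDR 0.339), in the authors' deposited tables. In ΔL51 mycelium 0 of the 6 were called by the authors' edgeR test and 0 had an unadjusted p under 0.05. In wild type mycelium 1 was higher, PbPdhE1a with a log2 fold change of 1.08 (FDR 0.0162) in the authors' deposited table. Centring (adjusted p = 0.148), the F distribution (adjusted p = 0.0841) and an FDR under 0.01 each ended this call.

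**Figure D4:**
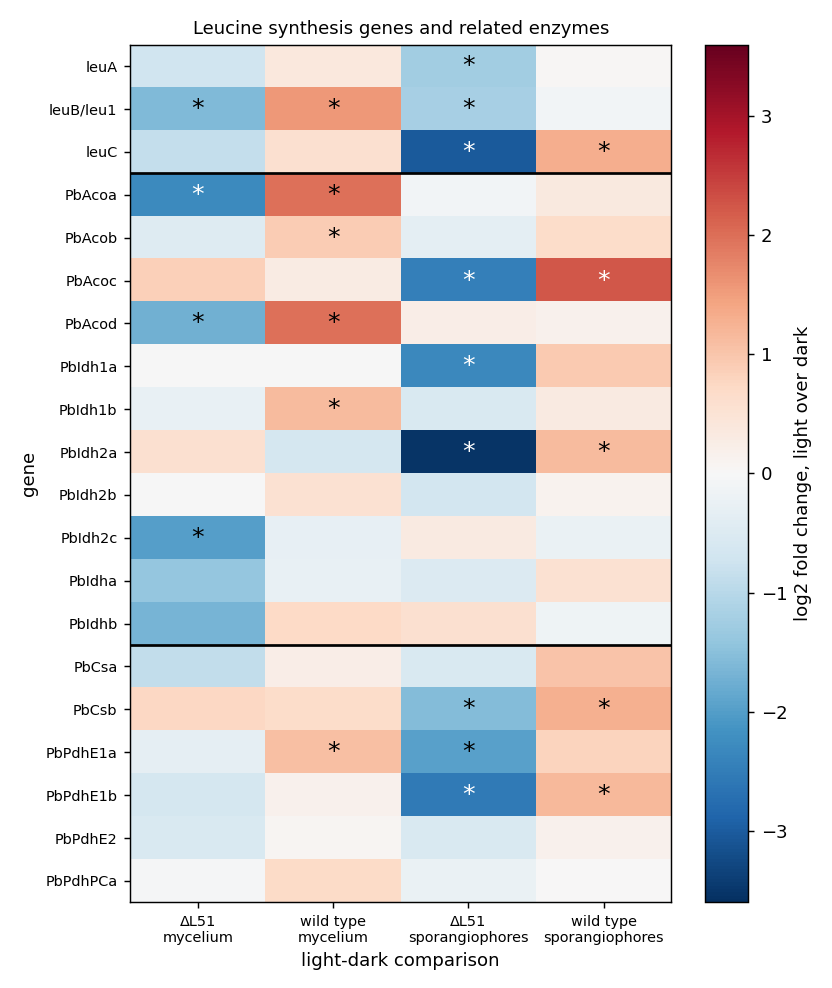
Colour shows the log2 fold change, light over dark, of each gene (rows) in each of the 4 comparisons (columns), and asterisks mark an FDR under 0.05. Lines separate the 3 leucine genes from 11 aconitase and isocitrate dehydrogenase genes and from 6 citrate synthase and pyruvate dehydrogenase genes. PbAcoa and PbAcod carry asterisks in both mycelium columns, and PbAcoc and PbIdh2a in both sporangiophore columns, as leuC does, while leuB/leu1 has asterisks in both mycelium columns and in that of ΔL51 sporangiophores.

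The genes with the folds most like those of each leucine gene were found by the Euclidean distance between their 4 log2 fold changes, over 6934 other genes with an average expression of at least the median in every table and no fold of exactly 0. For leuB/leu1 the nearest genes with a symbol were PbSucCoASa, a succinyl-CoA synthetase gene by its symbol (distance 1.04), PbFumHa, a fumarase gene by its symbol (1.34), and PbAcoa (1.45), against a median distance of 2.67. For leuC they were PbPdhE1b (distance 0.69), NDUFS7, a subunit of respiratory complex I (0.77), and QCR7, a subunit of complex III (0.88), against a median of 3.49. For leuA they were ATP2, the beta subunit of ATP synthase (distance 0.51), YPK1, a protein kinase (0.69), and NDUFA12, a complex I subunit (0.74), against a median of 1.91. Among all 6934 genes, these named genes held ranks 27, 98 and 165 for leuB/leu1, 10, 13 and 26 for leuC, and 13, 62 and 86 for leuA. Most genes with a symbol in this table code for respiratory, tricarboxylic acid cycle or signalling proteins, which limits what can be named. The nearest genes of any kind had no symbol, PHYBLDRAFT_17728 (0.59) and PHYBLDRAFT_89330 (0.67) for leuB/leu1, PHYBLDRAFT_177326 (0.34) and PHYBLDRAFT_119570 (0.42) for leuC, and PHYBLDRAFT_130447 (0.29) and PHYBLDRAFT_137006 (0.31) for leuA.

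The leucine genes were not each other's nearest genes. The distance between leuA and leuB/leu1 was 1.48, between leuA and leuC 2.21 and between leuB/leu1 and leuC 2.63. Seen from leuB/leu1, leuA held rank 184 among the 6934 genes, shortly after PbAcoa at rank 165, and leuC held rank 3323. Seen from leuC, leuA held rank 701 and leuB/leu1 rank 1257. Seen from leuA, leuB/leu1 held rank 1516 and leuC rank 4533, with leuC beyond the median distance of 1.91.

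The 3 genes do not lie next to each other in the order of assembly Phybl2, and each was set beside the gene on either side of it. Of the 24 folds of these 6 neighbours, 3 were called higher and 2 lower, and 1 of these calls matched a call of the adjoining leucine gene in the same table. On either side of leuA, PHYBLDRAFT_155813 had log2 fold changes of 0.63 in ΔL51 sporangiophores and 0.01 in wild type sporangiophores in the authors' deposited tables, and PHYBLDRAFT_147824 had 0.18 in ΔL51 sporangiophores and 0.60 in wild type sporangiophores, none of them called. On either side of leuB/leu1, PHYBLDRAFT_121519 had -0.03 in ΔL51 mycelium and -0.0047 in wild type mycelium, and PHYBLDRAFT_35373 had -0.95 in ΔL51 mycelium and 0.59 in wild type mycelium, none of them called in the authors' deposited tables. Next to leuC, PHYBLDRAFT_57297 was called lower in ΔL51 sporangiophores, as leuC was, with a log2 fold change of -2.29 (FDR 3.8e-14), and had -0.33 in wild type sporangiophores (FDR 0.720) in the authors' deposited tables. It was also called lower in ΔL51 mycelium (-1.89), where leuC was not called, in the authors' deposited table. On the other side of leuC, PHYBLDRAFT_187174 had -0.38 in ΔL51 sporangiophores and 0.48 in wild type sporangiophores, neither called in the authors' deposited tables. The leuB/leu1 neighbours in ΔL51 sporangiophores had 0.31 for PHYBLDRAFT_121519 and -0.89 for PHYBLDRAFT_35373, neither called in the authors' deposited table. The 3 higher calls were those of PHYBLDRAFT_155813 (1.42) and PHYBLDRAFT_187174 (2.35) in wild type mycelium and of PHYBLDRAFT_35373 (2.09) in wild type sporangiophores in the authors' deposited tables, where the adjoining leucine genes were not called. These neighbours were added after the leucine genes' values were seen. The rule by which reads of adjoining genes were counted is not given in the sources used here.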

How the data were processed

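Per the labels' protocols, Trizol was used to extract the RNA and a MessageAmp II kit to amplify it. Bowtie and edgeR are named in the submitters' processing notes. Their versions, the build, the annotation and the counting rule are not given in the sources used here. Each of the 4 tables deposited by the authors holds, per the file headers, a log2 fold change, a log2 CPM, a likelihood ratio score, its p-value and the FDR. Each p-value was checked to follow from its likelihood ratio by the chi-square distribution (1 degree of freedom), and the FDR from the p-values by Benjamini-Hochberg adjustment. The wild type tables and the ΔL51 sporangiophore table share their log2 CPM for all 14410 genes, and the ΔL51 mycelium table shares none. A count model, planned only if counts were held, was not run, and no depth or counting interval can be given. All 3 biological replicates of a group were separate per the series' design text.

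Row numbers were matched to locus tags of assembly Phybl2 (14355 of 14410, 99.6%), and 208 matched genes have a symbol. The approximate standard error is the size of the log2 fold change over the root of its likelihood ratio, and the 95% interval is built on it. The leucine genes and lists were chosen with earlier results of these data known. Lists were taken by symbol (PbAco and PbIdh; PbCs and PbPdh), and lists for branched-chain and other amino acid synthesis held no further gene. Named genes were the 3 leucine genes, up to 4 called genes of each list by the size of the fold, and for each leucine gene the 3 nearest genes with a symbol and 2 without. PbAcod, PbIdh2c, PbAcob, PbIdh1b and the neighbours in the assembly were named after their values were seen. Alternatives were an FDR under 0.01, adjustment over genes with at least the median log2 CPM, centring on the median of the folds other than 0, subtraction of the median of the same quintile of log2 CPM, and an F distribution with 1 and 12 degrees of freedom. The 12 was assumed for all 4 comparisons and not read from the authors' fits. It may be wrong for ΔL51 mycelium in particular, whose log2 CPM differ from those of the other comparisons. Centring and taking out the trend were checked on simulated folds with known changes and the same shift for all genes. No trend with expression level was simulated, so the removal of such a trend was not itself checked. The other alternatives, the lists, the distances and the neighbours were not checked in this way. Python 3.11.15, NumPy 2.4.6, pandas 2.3.3, SciPy 1.17.1 and Matplotlib 3.10.9 were used.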

Additional observations from a re-analysis of the deposited data

How the results depend on the processing

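Of 60 values of the leucine genes under the 5 alternatives, 53 kept their direction and their side of the threshold. Direction could change only under centring or with the trend taken out, because the other alternatives leave the fold as it is. A fold not called could not become called at an FDR under 0.01 or under the F distribution. The 53 are thus no measure of how firm the calls are. Calls kept under every alternative were those of leuA and leuC in ΔL51 sporangiophores and leuB/leu1 in wild type mycelium. At an FDR under 0.01 leuB/leu1 of ΔL51 mycelium (-1.59, FDR 0.0196) was not called. Under the F distribution, 2 calls ended, leuB/leu1 of ΔL51 mycelium (-1.59, adjusted p = 0.378) and leuC of wild type sporangiophores (1.32, adjusted p = 0.0867). With the trend on expression level taken out, leuB/leu1 of ΔL51 sporangiophores (-0.73, adjusted p = 0.0536) and leuC of wild type sporangiophores (0.87, adjusted p = 0.164) lost their calls, and leuA of wild type sporangiophores turned to -0.41. Centring moved the folds of wild type mycelium by 0.39 and turned leuA there to -0.0027. The causes were not tested.

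Genes called numbered 64 in ΔL51 mycelium (159 at an FDR under 0.05), 1252 in wild type mycelium (2024) and 736 in wild type sporangiophores (1212) at an FDR under 0.01, and 10, 997 and 482 in the same comparisons under the F distribution, with 1514 in ΔL51 sporangiophores (2256). The share of calls that were higher was 36.9% after centring in ΔL51 mycelium (48.4% by the authors' folds) and 40.3% in wild type mycelium (70.2%), and with the trend taken out it was 43.7% in wild type mycelium and 72.3% in wild type sporangiophores (86.0%).

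No paired analysis was possible because the tables hold no values per library, and for the same reason leaving out each replicate was not run. Depth limits could not be assessed.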
